A study of Mus musculus with 48 samples.

Results

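A set of 9 genes that mark alveolar type 1 cells were followed in whole mouse lung: Ager, Hopx, Pdpn, Aqp5, Rtkn2, Clic5, Emp2, Cav1 and Gprc5a. They were chosen by gene symbol, and all 9 were found among the 47561 genes of the expression table. Lungs came from 48 mice in 16 groups of 3. C3H/hen (C3H) and C57Bl/6 (C57B) mice of both sexes received 1 intraperitoneal injection of saline or of 25 mg/kg aurothioglucose (ATG), an inhibitor of the antioxidant enzyme thioredoxin reductase that contains gold. They then spent 96 hours in room air or in hyperoxia of more than 95% oxygen. The study's methods give the age as 6 to 8 weeks. Every mouse carried an injection, so the room air saline mice are an injected baseline. Each mouse gave 1 library and is called here by its number from 1 to 48. Values are FPKM, a fragment count scaled to transcript length and library size, and differences are on the log2(FPKM + 1) scale unless stated otherwise.

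Alveolar type 1 cells are the flat epithelial cells that line most of the gas exchange surface. Type 2 cells, which make surfactant, can replace them by passing through a transitional state rich in keratin 8, and YAP, TAZ and TEAD factors together with NKX2-1 take part in keeping type 1 identity. High oxygen is known to injure the alveolar epithelium and endothelium. The 9 genes do different things. Hopx is a homeodomain protein without DNA binding of its own. Ager encodes RAGE, a multiligand receptor that is very abundant on the type 1 cell membrane. Gprc5a is an orphan G protein-coupled receptor. Pdpn is podoplanin, a membrane glycoprotein, Cav1 is the main coat protein of caveolae, and Emp2 is a tetraspan membrane protein. Aqp5 is a water channel, and Clic5 is an intracellular chloride channel protein linked to the actin cytoskeleton. None of the 9 is strictly limited to type 1 cells. Cav1 is also high in endothelium, and Pdpn also marks lymphatic endothelium and mesothelium.

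The genes lie on 7 chromosomes of GRCm38, the sequence that mm10 names: Ager at chr17:34597862-34600936, Clic5 at chr17:44188584-44280172, Cav1 at chr6:17306335-17341452, Gprc5a at chr6:135065651-135084709, Hopx at chr5:77086988-77115121, Pdpn at chr4:143267431-143299564, Emp2 at chr16:10281749-10313968, Aqp5 at chr15:99590782-99594829 and Rtkn2 at chr10:67979570-68059740. All are protein-coding. Hopx, Rtkn2 and Cav1 each overlap an antisense gene (Hopxos, Gm16212 and Gm15581). The library kit was directional, but whether the authors' quantification used the strand was not stated, so reads of these 3 pairs may be mixed. At most 2.15% of the 30-base words of a member's transcripts were shared with another gene. Promoter sequence was available from RefSeq (GRCm38.p6) for 7 of the 9 genes. The 250 bases upstream of the start are printed for 3 of them, because they stand for the patterns described below: Ager and Cav1 fell in hyperoxia in both strains, while Pdpn rose in C3H mice given ATG. The Ager fall in C3H saline mice did not pass the test without mouse 33. Capitals mark matches to a motif.
Ager (chr17:34597600-34597849, plus strand): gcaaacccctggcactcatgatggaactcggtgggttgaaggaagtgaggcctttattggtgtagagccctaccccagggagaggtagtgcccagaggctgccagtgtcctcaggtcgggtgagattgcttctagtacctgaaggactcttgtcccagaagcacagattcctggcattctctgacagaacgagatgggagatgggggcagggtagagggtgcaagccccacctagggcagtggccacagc
Cav1 (chr6:17306085-17306334, plus strand): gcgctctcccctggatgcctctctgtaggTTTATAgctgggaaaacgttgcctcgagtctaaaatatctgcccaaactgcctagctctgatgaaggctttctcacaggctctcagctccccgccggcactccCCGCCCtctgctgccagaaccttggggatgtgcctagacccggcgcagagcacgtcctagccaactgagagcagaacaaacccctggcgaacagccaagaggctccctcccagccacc
Pdpn (chr4:143299565-143299814, minus strand): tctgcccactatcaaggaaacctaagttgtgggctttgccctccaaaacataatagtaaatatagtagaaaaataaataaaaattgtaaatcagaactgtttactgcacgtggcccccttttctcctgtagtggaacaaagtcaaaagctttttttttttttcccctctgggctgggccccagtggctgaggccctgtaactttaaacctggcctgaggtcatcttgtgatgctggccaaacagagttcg
The letters of 4 motifs were searched on both strands, overlaps included. For the TEAD core the letters were GGAATG. For the NKX2-1 core they were CACTTG. The GC box was searched as GGGCGG. The TATA box was searched as TATAAA. Of 32851 promoters of this length, 12.6% held the TEAD core, 11.6% the NKX2-1 core, 32.7% a GC box and 12.4% a TATA box. Cav1 held the letters of 1 GC box and 1 TATA box, and Aqp5, Clic5 and Emp2 those of 2 GC boxes each. The TATA letters of Cav1 matched on the reverse strand, near the end of the window farthest from the start. These are matches of letters only. Neither the TEAD nor the NKX2-1 letters occurred in the 9 windows of the 7 genes, which says only that these letters are not in these windows. Base composition differed widely among them, from 43.2% G and C in Pdpn to 78.4% in Aqp5, against a median of 52.4% over all promoters. The Aqp5 window (chr15:99590778-99591027) lies largely within the span given above for that gene, so it may hold transcribed sequence.

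Library checks bear on several results. Strain labels fitted the data in every mouse: H2-Ea-ps was at 100.3 FPKM or more in all 24 C3H mice and at 2.28 FPKM or less in all 24 C57B mice. Lung markers were high throughout, with Sftpc between 2996 and 42323 FPKM. Libraries of the same group correlated at 0.933 to 0.979 over 16994 genes, and no 2 libraries held the same values. Absolute depth is unknown from FPKM, and relative depth estimated from low values ranged from 0.768 to 1.24 of the median. Mouse 33, a C3H female given saline in hyperoxia, was lower than the other 5 C3H saline hyperoxia mice in all 9 genes. Results that rest on it are therefore given with and without it. It was picked out by these same genes, so the fits without it show dependence on 1 mouse and are not independent tests. Summed cardiac muscle transcripts (7 genes) ran from 24.3 to 1452 FPKM in saline room air and from 14.2 to 100.3 FPKM in saline hyperoxia. These transcripts moved with oxygen, and their part in the results below was not tested.

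At baseline, in the 12 saline mice in room air, the 9 genes spanned a wide range of levels. Ager was the most abundant at 1944 ± 579 FPKM (SD, n = 12), followed by Hopx at 1079 ± 226 and Cav1 at 613 ± 106. Emp2 stood at 464 ± 108, Gprc5a at 387 ± 120 and Aqp5 at 303 ± 59.5. The lowest were Clic5 at 170 ± 47.3, Pdpn at 120 ± 29.9 and Rtkn2 at 73.3 ± 22.8. Mouse by mouse, Ager exceeded Hopx, Hopx exceeded Cav1 and Cav1 exceeded Emp2 in 12 of 12 mice. The middle of the order was less fixed. Emp2 exceeded Gprc5a in 9 of 12 mice, Gprc5a exceeded Aqp5 in 10 of 12, and Clic5 exceeded Pdpn in 11 of 12. In the 12 saline mice in hyperoxia, the order of 2 neighbours turned: Emp2 exceeded Gprc5a in 0 of 12 mice and Clic5 exceeded Pdpn in 3 of 12. Cav1 exceeded Emp2 in 6 of 12.

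**Figure D1:**
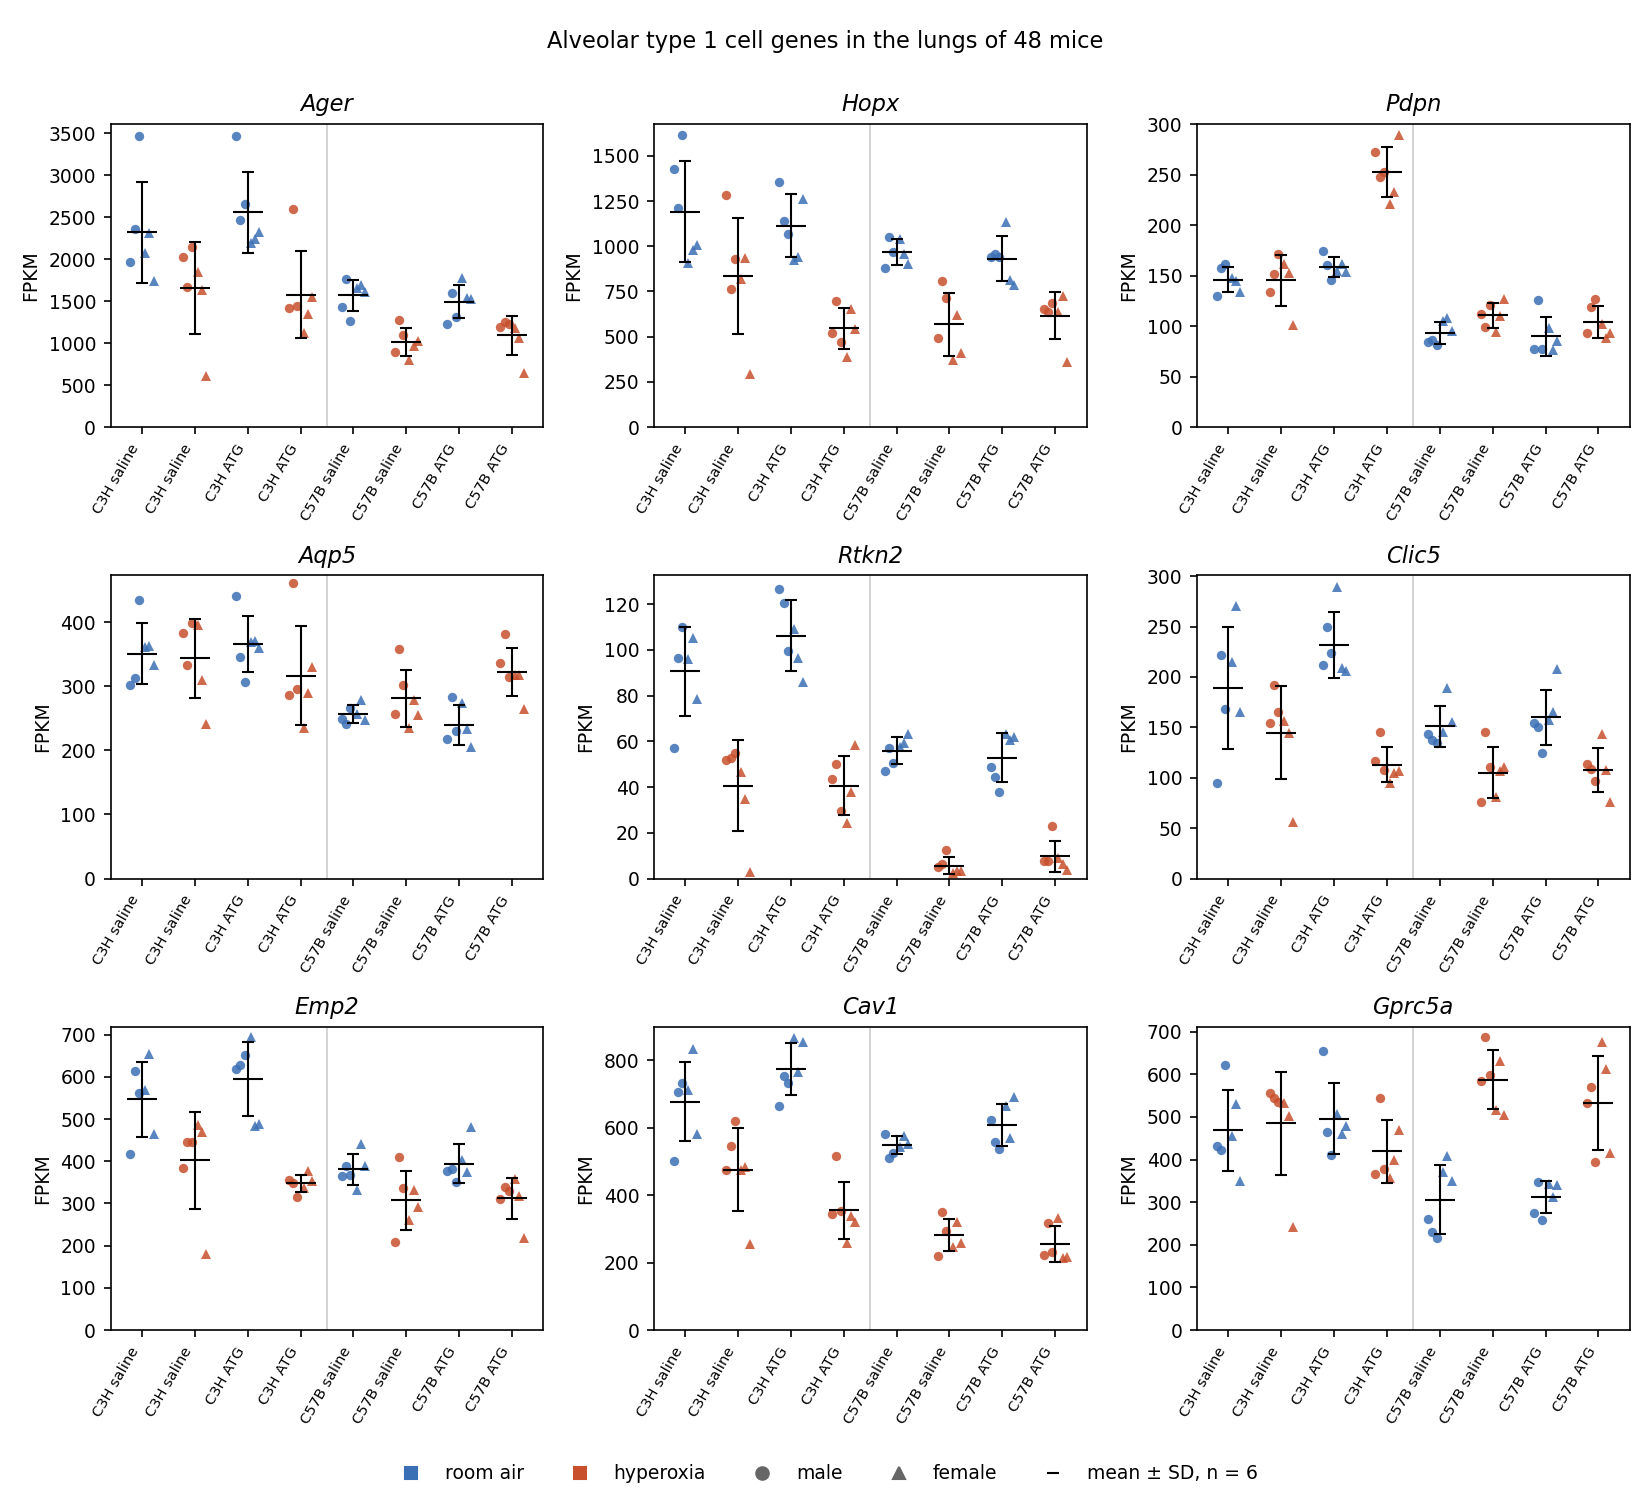
FPKM (linear axis from 0) of each gene in every mouse, by strain and injection, with room air in blue, hyperoxia in orange, males as circles, females as triangles, and the mean ± SD of 6 mice in black. Rtkn2 drops toward 0 in C57B hyperoxia mice, Gprc5a has a higher mean in C57B hyperoxia than room air mice (587 against 306 FPKM with saline), and Pdpn is highest in C3H mice given ATG in hyperoxia (221 to 290 FPKM).

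The first question was how strain shaped the baseline. Type 1 genes were higher in C3H than in C57B lungs: 6 of the 9 passed the test, all in that direction, while 3.92% of 15546 genes were higher in C3H and 7.87% lower (11.8% in all). The median difference of the 9 genes was 0.51 on the log2 scale, against -0.10 over all genes. Pdpn and Aqp5 separated the strains without overlap, as did 5.98% of all genes. Pdpn was lowest at 130 FPKM in C3H (median 146, highest 162) and highest at 108 FPKM in C57B (lowest 81.2, median 90.6). Its difference was 0.65 (SE 0.08, limma adjusted p = 2.9e-04). Aqp5 ran from 302 to 434 FPKM (median 346) in C3H and from 240 to 279 FPKM (median 253) in C57B, a difference of 0.44 (SE 0.10, adjusted p = 0.0126). Every C3H mouse was above every C57B mouse for both genes.

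Gprc5a, Rtkn2, Emp2 and Ager were also higher in C3H, but their ranges met. The difference was 0.63 (SE 0.13, adjusted p = 0.00717) for Gprc5a and 0.66 (SE 0.15, adjusted p = 0.0125) for Rtkn2. For Emp2 it was 0.51 (SE 0.12, adjusted p = 0.0183), a call lost without mouse 26 (0.45, adjusted p = 0.0512). Ager ran from 1746 to 3462 FPKM (median 2194) in C3H and from 1259 to 1761 FPKM (median 1634) in C57B. Its difference of 0.54 (SE 0.14, adjusted p = 0.0298) was lost when any of 7 of the 12 mice was left out, with adjusted p up to 0.0803. Hopx (0.27, 95% interval 0.06 to 0.48, adjusted p = 0.0881), Cav1 (0.29, 0.03 to 0.54, adjusted p = 0.144) and Clic5 (0.26, -0.15 to 0.67, adjusted p = 0.407) did not pass. Of 19 other type 1 genes tested, 4 were higher in C3H, among them Agrn, a basement membrane proteoglycan, and the remaining 15 did not pass (median 0.28). Type 2 markers stood the other way, with 8 of 10 lower in C3H and 2 not past the test (median -0.67), and 2 of 8 endothelial markers were higher (median 0.29). In whole lung, more cells of a type and more RNA per cell cannot be told apart. With median ratio scaling the all-gene median lay close to 0, and the higher share among strain calls went from 33.2% to 48%. Of the 9 genes 7 then passed, Ager at 0.65 and Pdpn at 0.76, where 1937 of 15546 genes did. The 18S ribosomal RNA gene Rn18s-rs5 was at 11999 to 25895 FPKM in the 3 C3H males, 4400 to 5381 FPKM in the 3 C3H females and 4768 to 9415 FPKM in the 6 C57B mice. Without mice 1 and 3, C3H males with the most of it, 6 of the 9 still passed, the higher share among all calls was 46.3% and the calls over all genes went from 1832 to 1349. Males and females did not differ in the test for any of the 9 genes at baseline (0 of 9 at limma adjusted p under 0.05, 1 of 9 at an unadjusted p under 0.05), where 0.669% of all genes did. The closest was Hopx, with a male minus female difference of 0.27 (95% interval 0.07 to 0.48, adjusted p = 0.138).

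The next question was what hyperoxia did to these genes in saline mice. Most of the 9 fell and 1 rose. In hyperoxia 6 were lower, namely Rtkn2, Cav1, Hopx, Ager, Clic5 and Emp2, while 28.3% of 16321 genes were lower. Gprc5a was higher, as were 31.8% of all genes, and 60.1% changed in either direction. The median of the 9 differences was -0.47, against 0.01 over all genes. None of the 9 separated the 12 hyperoxia from the 12 room air mice without overlap, which 7.74% of all genes did. Fewer type 1 cells and less RNA per cell cannot be told apart here either.

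Rtkn2 fell the most of the 9. It ran from 47.2 to 110 FPKM (median 61.3) in room air and from 2.44 to 55.0 FPKM (median 9.48) in hyperoxia. That is a difference of -2.38 (SE 0.29, adjusted p = 5.59e-07), or 5.21-fold lower on this scale. The low hyperoxia values belonged to the C57B mice and to mouse 33. Cav1 fell from a range of 502 to 833 FPKM (median 579) to 221 to 621 FPKM (median 336), a difference of -0.76 (SE 0.11, adjusted p = 6.15e-06).

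Hopx ran from 883 to 1613 FPKM (median 993) in room air and from 296 to 1281 FPKM (median 737) in hyperoxia, a difference of -0.71 (SE 0.15, adjusted p = 5.28e-04). Ager ran from 1259 to 3462 FPKM (median 1753) in room air and from 612 to 2145 FPKM (median 1188) in hyperoxia, a difference of -0.60 (SE 0.15, adjusted p = 0.00148). Clic5 was lower by a smaller margin, -0.47 (SE 0.16, adjusted p = 0.0169), as was Emp2, -0.42 (SE 0.14, adjusted p = 0.0167). Ranges overlapped broadly for these 4 genes. Even so, Ager remained the most abundant of the 9 in every saline hyperoxia mouse.

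Gprc5a went the other way, from 217 to 622 FPKM (median 389) in room air to 241 to 688 FPKM (median 540) in hyperoxia, a difference of 0.50 (SE 0.11, adjusted p = 7.49e-04). Pdpn and Aqp5 did not pass. The Pdpn difference was 0.11 (95% interval -0.05 to 0.27, adjusted p = 0.221) and that of Aqp5 was 0.04 (-0.13 to 0.21, adjusted p = 0.685), intervals within which neither gene lost as much as Clic5 or Emp2 did on average. Without mouse 33, Pdpn also passed (0.16, adjusted p = 0.0326), which made 8 of 9, and the other 7 calls stayed. No share over all genes is given for that fit. Without the 3 mice with the most 18S ribosomal RNA (mice 1, 3 and 4), 7 of 9 passed, where 9435 of 16213 genes did.

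**Figure D2:**
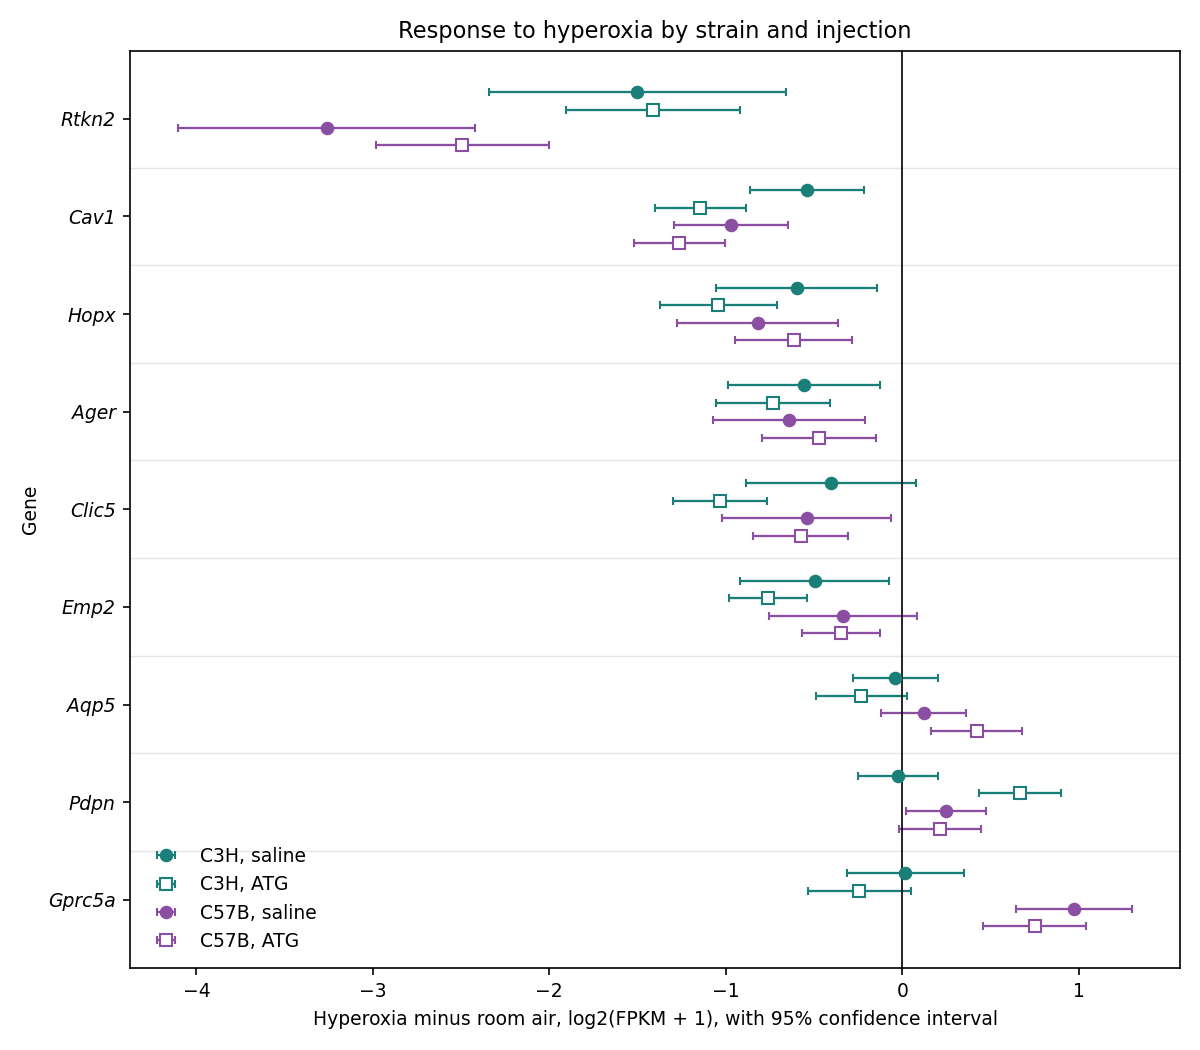
Difference between hyperoxia and room air on the log2(FPKM + 1) axis for each gene, in C3H (green) and C57B (purple) mice given saline (filled circles) or ATG (open squares), 6 mice per air group, with 95% confidence intervals. Rtkn2 lies farthest to the left in C57B (-3.26 with saline and -2.49 with ATG), and Gprc5a lies right of 0 in C57B (0.97 and 0.75) but not in C3H (0.02 and -0.24).

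Strain changed the response of Gprc5a. With saline, C57B mice went from 217 to 409 FPKM (median 305) in room air to 504 to 688 FPKM (median 591) in hyperoxia, without overlap, as 32.4% of all genes did in this strain. C3H mice held 350 to 622 FPKM (median 444) in room air and 241 to 555 FPKM (median 533) in hyperoxia. The rise was 0.97 (SE 0.16, adjusted p = 3.21e-05) in C57B, and the C3H value was 0.02 (95% interval -0.31 to 0.35, adjusted p = 0.946), or 0.20 without mouse 33 (adjusted p = 0.196). The strain difference in response, C3H minus C57B, was -0.95 (SE 0.22, adjusted p = 0.00992). It was the only 1 of the 9 to pass, where 2.81% of all genes had a lower response in C3H and 8.71% a higher one. Those shares lean on scaling: 75.6% of the calls (11.5% of all genes) were higher in C3H as deposited, and 46.5% after median ratio scaling, with all-gene medians of 0.15 and 0.00. Relative to the all-gene median the Gprc5a value was lower under both, and after median ratio scaling it was -1.15 (adjusted p = 0.00478). The room air difference between strains, higher in C3H, had no counterpart in hyperoxia, where C3H minus C57B was -0.32 (95% interval -0.65 to 0.01, adjusted p = 0.144), or -0.14 without mouse 33 (adjusted p = 0.406).

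Rtkn2 showed the widest gap between strains. In C57B saline mice it stood at 47.2, 57.3, 50.7, 57.7, 59.5 and 63.2 FPKM in room air. In hyperoxia the 6 C57B mice stood at 5.23, 6.36, 12.6, 2.44, 3.56 and 3.34 FPKM. Every C57B hyperoxia mouse was thus far below every C57B room air mouse, with a difference of -3.26 (SE 0.40, adjusted p = 1.18e-06). C3H saline mice stood at 57.1, 96.6, 110, 95.9, 105 and 78.8 FPKM in room air. In hyperoxia 5 of them stood at 51.8, 52.7, 55.0, 46.5 and 34.8 FPKM and mouse 33 at 2.72 FPKM. The C3H fall was -1.50 (SE 0.40, adjusted p = 0.00615), also without overlap, as were 14.3% of all genes in C3H. Without mouse 33 it was -0.92 (SE 0.18, adjusted p = 6.61e-04). In both strains the two-sided exact permutation p was 0.00216, the smallest that 6 against 6 mice allow. Groups without overlap always give this value, so it adds nothing to that separation. Hopx, Cav1 and Gprc5a also gave it in C57B saline mice, where 32.4% of all genes separated without overlap.

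Whether the fall of Rtkn2 differed between strains past the test depended on single mice. With all mice the C3H minus C57B difference was 1.76 (SE 0.57, 95% interval 0.57 to 2.95, adjusted p = 0.0504). Without mouse 33 it was 2.34 (adjusted p = 1.13e-05), and it also passed without mouse 2 or mouse 21. Because mouse 33 was picked out by its low values in these genes, the p-value without it is not independent support. Cav1 stood at 0.43 with all mice (adjusted p = 0.203) and 0.58 without mouse 33 (adjusted p = 0.0357), so that 3 of the 9 genes passed. In hyperoxia itself Rtkn2 was higher in C3H than in C57B by 2.42 (SE 0.40, adjusted p = 1.66e-04) and Cav1 by 0.72 (SE 0.15, adjusted p = 0.00166), mouse 33 included, as were Ager and Pdpn. Without mouse 33 Rtkn2 stood at 3.00 and Cav1 at 0.87, and 8 of the 9, all but Gprc5a, were higher in C3H. With mouse 33 there were 4 of the 9, where 16.1% of all genes were higher in C3H. None of the 9 separated the strains without overlap then, where 10.8% of all genes did. No share over all genes is given for any fit without mouse 33, so counts from those fits have none beside them. Cav1 ran from 254 to 621 FPKM (median 480) in C3H and from 221 to 351 FPKM (median 276) in C57B hyperoxia mice. The summed level of 8 endothelial markers ran the same way, from 1560 to 2064 FPKM in C3H and from 845 to 1152 FPKM in C57B. Single markers did not all follow the sum. Pecam1 ran from 189 to 254 FPKM in C3H and from 165 to 206 FPKM in C57B, with overlap. Cdh5 ran from 163 to 276 FPKM in C3H and from 222 to 289 FPKM in C57B. The part of endothelium in the Cav1 result was not tested.

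The remaining genes gave no strain difference in response past the test. For Ager it was 0.09 (95% interval -0.52 to 0.69), for Hopx 0.22 (-0.42 to 0.86), for Clic5 0.14 (-0.54 to 0.82) and for Emp2 -0.16 (-0.76 to 0.44). These intervals are wide enough to hold differences as large as the hyperoxia effect itself. Pdpn (-0.27, -0.59 to 0.05) and Aqp5 (-0.16, -0.50 to 0.18) were held more tightly. Without mouse 33 these values were 0.34 for Ager, 0.48 for Hopx, 0.37 for Clic5, 0.07 for Emp2, -0.16 for Pdpn and -0.07 for Aqp5, so that the sign of Emp2 turned, and none of the 6 passed (limma, lowest adjusted p = 0.132). Within C3H saline mice, 4 of 9 genes fell (Ager, Hopx, Rtkn2 and Cav1), where 12.5% of all genes fell. Without mouse 33 only Rtkn2 and Cav1 of the 9 fell in C3H, with Ager at -0.30 (adjusted p = 0.107) and Hopx at -0.34 (adjusted p = 0.0973). Within C57B saline mice Ager, Hopx, Rtkn2 and Cav1 fell and Gprc5a rose, where 30.0% fell and 25.5% rose. When the 12 C3H mice were fitted alone, the calls shrank to 2 of 9, where 5164 of 15293 genes passed in either direction. With the C57B saline mice fitted alone, Pdpn also rose (0.25, limma adjusted p = 0.0248), and Emp2 did not pass (-0.34, adjusted p = 0.0657). Sex made no difference to the response that passed (0 of 9 at limma adjusted p under 0.05, 3 of 9 at an unadjusted p under 0.05, 0.0368% of all genes called). The widest was Rtkn2, with a male minus female difference in response of 1.48 (95% interval 0.29 to 2.67, adjusted p = 0.202), which was 0.90 without mouse 33 (adjusted p = 0.208).

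Mouse 33 was the lowest of the 6 C3H saline hyperoxia mice in each of the 9 genes. It held 612 FPKM of Ager (1637 to 2145 in the other 5), 296 of Hopx (763 to 1281) and 254 of Cav1 (474 to 621). Its Gprc5a level was 241 FPKM (501 to 555), and its Pdpn level was nearer the rest at 101 FPKM (134 to 172). The 19 other type 1 genes with usable values summed to 1151 FPKM in this mouse (2944 to 3135 in the other 5), and 10 type 2 markers to 6215 FPKM (10608 to 22640). Endothelial markers, at 1565 FPKM (1560 to 2064), and transitional epithelium markers, at 3011 FPKM (2306 to 3551), lay within the range of the others. Fibroblast genes, at 245 FPKM (333 to 401), caveola genes, at 686 FPKM (1222 to 1491), and airway markers, at 27248 FPKM (27336 to 42148), lay below that range. The caveola sum includes Cav1. Lymphatic markers lay above it at 766 FPKM (294 to 712), as did aerocyte genes at 229 FPKM (178 to 212) and cardiac transcripts at 100.3 FPKM (25.7 to 48.8). A pair of RAGE ligands carried by neutrophils was far above it: S100a8 at 2230 FPKM (51.7 to 509.9) and S100a9 at 3185 FPKM (81.0 to 709). The strain marker H2-Ea-ps stood at 122 FPKM, as in other C3H mice, and relative depth was 0.953.

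**Figure D3:**
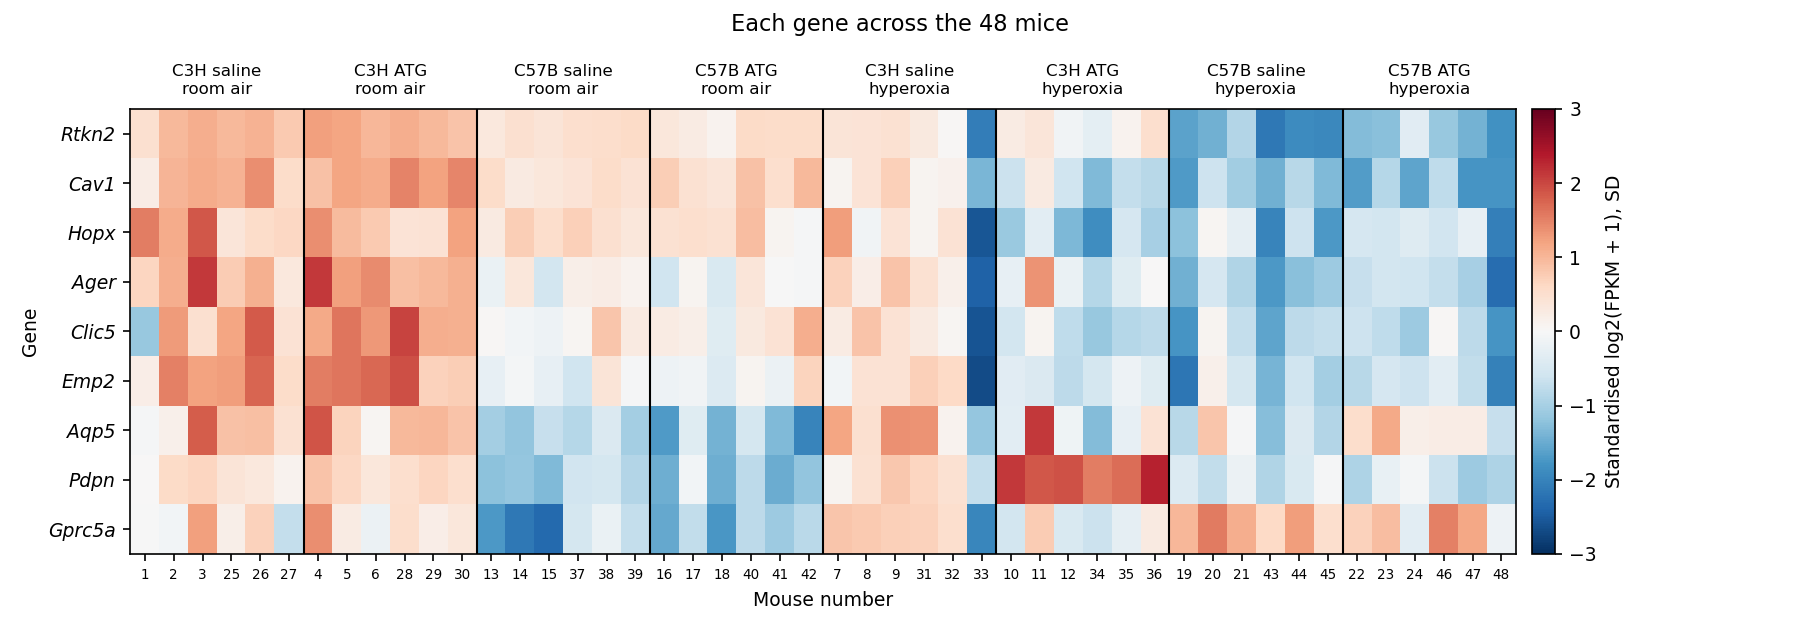
Each gene's log2(FPKM + 1), standardised over the 48 mice (colour, in SD units), with genes in rows and mice in columns ordered by air, strain and injection. Mouse 33 is blue in all 9 rows among redder C3H hyperoxia neighbours, and Pdpn is red in all 6 C3H mice given ATG in hyperoxia (221 to 290 FPKM).

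The same question was asked in mice given ATG. Hyperoxia lowered 6 of the 9 genes, again Rtkn2, Cav1, Hopx, Ager, Clic5 and Emp2, where 26.0% of 16206 genes fell. Pdpn and Gprc5a rose, where 35.8% of all genes rose, and 61.8% changed in either direction. The median of the 9 differences was -0.60, against 0.06 over all genes. Hopx and Cav1 separated the 12 hyperoxia from the 12 room air mice without overlap, as did 12.9% of all genes. Cav1 ran from 536 to 868 FPKM (median 678) in room air and from 214 to 515 FPKM (median 319) in hyperoxia, a difference of -1.20 (SE 0.09, adjusted p = 2.62e-10). Hopx ran from 784 to 1353 FPKM (median 951) in room air and from 361 to 723 FPKM (median 638) in hyperoxia, a difference of -0.83 (SE 0.11, adjusted p = 2.14e-06).

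Rtkn2 differed by -1.95 (SE 0.17, adjusted p = 2.87e-09), Clic5 by -0.80 (SE 0.09, adjusted p = 1.72e-07), Ager by -0.60 (SE 0.11, adjusted p = 7.13e-05) and Emp2 by -0.55 (SE 0.08, adjusted p = 2.17e-06). Aqp5 did not pass (0.10, 95% interval -0.09 to 0.28, adjusted p = 0.359). The rise of Gprc5a (0.25, SE 0.10, adjusted p = 0.0327) was lost when any of 12 of the 24 mice was left out and turned to -0.24 (adjusted p = 0.156) in C3H mice fitted alone. It also did not pass after median ratio scaling (0.15, adjusted p = 0.241), after quantile normalization (0.03, adjusted p = 0.797), without the filter on low values (adjusted p = 0.0566), or in males (adjusted p = 0.176) or females (adjusted p = 0.0932) fitted alone. Within C57B it was 0.75 (SE 0.14, adjusted p = 1.37e-04), where 30.7% of all genes rose.

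Strain differences in the response recurred with ATG, in a comparison added after the values had been seen. In all 3 of the 9 passed, where 13.3% of all genes did (8.27% with a higher response in C3H and 5.04% with a lower one). The higher share among those calls was 62.2% as deposited, 47.5% after median ratio scaling and 47.2% after quantile normalization. Gprc5a again responded lower in C3H, by -0.99 (SE 0.20, adjusted p = 0.00258). Rtkn2 fell less in C3H, with a difference of 1.08 (SE 0.33, adjusted p = 0.0371) that was lost when any of 15 of the 24 mice was left out. In hyperoxia with ATG, Rtkn2 ran from 24.3 to 58.6 FPKM (median 40.7) in C3H and from 3.96 to 22.9 FPKM (median 7.79) in C57B, without overlap, as were 12.1% of all genes (15.2% of all genes were higher in C3H by the test). The third was Aqp5, at -0.65 (SE 0.17, adjusted p = 0.0171). It rose in C57B from 205 to 282 FPKM (median 232) to 265 to 381 FPKM (median 317), a difference of 0.42 (SE 0.12, adjusted p = 0.00648). In C3H its difference was -0.23 (95% interval -0.49 to 0.03, adjusted p = 0.131). The saline and ATG comparisons used different mice.

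ATG itself was then compared with saline at each oxygen level. In room air 0 of the 9 genes passed (limma adjusted p under 0.05), and 1 of 9, Cav1, had an unadjusted p under 0.05, where 0.0185% of 16228 genes passed and 1077 had an unadjusted p under 0.05. The differences ran from -0.07 in Hopx to 0.21 in Clic5. For Ager the 95% interval was -0.14 to 0.23 and for Rtkn2 -0.11 to 0.26.

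In hyperoxia 1 of the 9 passed, Pdpn, which was higher with ATG, where 5.47% of 15860 genes passed and 3.89% were higher. The higher share among those calls was 71.1% as deposited, 45.6% after quantile normalization and 41.0% after median ratio scaling. ATG mice held 88.5 to 290 FPKM (median 174) and saline mice 94.5 to 172 FPKM (median 124), a difference of 0.36 (SE 0.08, adjusted p = 0.0187). The spread in the ATG mice was a strain difference. C3H mice given ATG stood at 272, 248, 253, 221, 233 and 290 FPKM in hyperoxia, and C3H mice given saline at 134, 152, 172, 162, 152 and 101 FPKM. All 6 ATG mice were above all 6 saline mice, with a difference of 0.81 (SE 0.12, adjusted p = 0.00102), where 1.7% of all genes did not overlap and 1.6% were higher. Without mouse 33 the C3H difference was 0.70 (adjusted p = 0.0014). Hopx (-0.78, adjusted p = 0.0297) and Cav1 (-0.55, adjusted p = 0.0416) were then lower with ATG in C3H. That made 3 of 9 in place of 1, with no share over all genes for that fit. In C57B the groups overlapped, at 88.5 to 127 FPKM (median 98.1) with ATG and 94.5 to 127 FPKM (median 111) with saline. The C57B difference was -0.10 (95% interval -0.34 to 0.15, adjusted p = 0.688), and 0.864% of all genes passed in that strain. The strain difference in the ATG effect, compared after the values had been seen, was 0.90 (SE 0.16, adjusted p = 0.0146), and it was the only 1 of the 9 to pass, where 0.416% of all genes did and 0.328% had a higher ATG effect in C3H. Leaving out any 1 of the 24 mice kept that call.

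Pdpn in C3H also rose with oxygen under ATG, from 146 to 175 FPKM (median 158) in room air to 221 to 290 FPKM, a difference of 0.66 (SE 0.11, adjusted p = 5.09e-05), where 30.4% of all genes rose, whereas with saline the C3H difference was -0.02 (95% interval -0.25 to 0.20, adjusted p = 0.89). Lymphatic endothelium and mesothelium also carry podoplanin, and their part in the Pdpn result was not tested. The summed level of 4 lymphatic markers ran from 261 to 592 FPKM (median 389) in C3H ATG hyperoxia mice and from 294 to 766 FPKM (median 501) in C3H saline hyperoxia mice. Over both strains 2 of the 3 lymphatic genes tested were lower with ATG in hyperoxia (median -0.35). Mesothelial markers (4 genes) ran from 71.4 to 171 FPKM (median 120) and from 73.9 to 166 FPKM (median 136) in the same groups of C3H mice, and 0 of 4 passed limma, with 0 at an unadjusted p under 0.05. Of the 19 other type 1 genes tested, 0 passed limma for ATG in hyperoxia and 2 had an unadjusted p under 0.05 (median -0.05).

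Finally, the hyperoxia response was compared between ATG and saline mice in 1 fit of all 48. None of the 9 passed (limma, 0 at adjusted p under 0.05 and 2 at an unadjusted p under 0.05), where 2.77% of 16994 genes did. Nearest were Cav1, with a response lower by -0.45 under ATG (SE 0.14, adjusted p = 0.0763), and Pdpn, higher by 0.33 (SE 0.11, adjusted p = 0.0913). Cav1 passed after median ratio scaling (-0.49, adjusted p = 0.0477). The other differences ran from -0.33 in Clic5 to 0.43 in Rtkn2. Ager stood at -0.01 (95% interval -0.39 to 0.38). Without mouse 33 the values were -0.45 for Clic5, 0.14 for Rtkn2 and -0.13 for Ager, and Cav1 passed at -0.52 (adjusted p = 0.0217).

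Genes that share the type 1 cell or its machinery were read beside the 9 in saline mice. Over all genes 28.3% fell, 31.8% rose and 60.1% changed in either direction, shares that stand beside each list below. Among other genes known from type 1 cells, 7 of 19 tested fell, 2 rose and 10 did not pass, with a median of -0.18. Their summed level ran from 2060 to 3240 FPKM (median 2483) in room air and from 1151 to 3135 FPKM (median 2848) in hyperoxia. The largest falls were those of Pmp22 (-0.85, adjusted p = 3.36e-06), a tetraspan protein related to Emp2, and Vegfa (-0.74, adjusted p = 5.17e-05), the endothelial growth factor that type 1 cells supply. The genes that rose were Lmo7, an actin-associated adaptor (1.44, adjusted p = 6.05e-07), and Krt7, a simple epithelial keratin (0.83, adjusted p = 1.56e-07). Akap5 was left out because its estimate had failed in 7 mice.

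Caveola genes moved in both directions, with 5 of 8 lower, 2 higher and 1 not past the test (median -0.48). The list includes Cav1 itself, and Cav2, which is also among the other type 1 genes, so these counts are not separate from those above. Sdpr (-1.38, adjusted p = 9.15e-07) and Ptrf (-0.82, adjusted p = 7.67e-07), which encode cavin coat proteins, fell with Cav1, as did the ATPase Ehd2 (-0.58, adjusted p = 0.00146). Of 15 regulators and targets in the YAP and TEAD pathway and of alveolar transcription factors, 7 rose, 5 fell and 3 did not pass (median 0.14). The known YAP targets Ankrd1 (3.53, adjusted p = 3.66e-14), Ctgf (2.34, adjusted p = 1.97e-10) and Cyr61 (1.96, adjusted p = 6.67e-09) had the largest rises, and Nkx2-1, the lung lineage factor, fell by 1.20 (adjusted p = 6.64e-07).

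Ligands and partners of RAGE moved in both directions. Of 6, 3 rose, 1 fell and 2 did not pass (median 0.48): S100a8 (1.44, adjusted p = 0.0161), S100a9 (1.38, adjusted p = 0.0244) and S100a6 (0.85, adjusted p = 8.78e-07) were higher and S100b (-0.42, adjusted p = 0.0236) lower. S100a8 and S100a9 are carried mainly by neutrophils, and mouse 33 held the most of both among the C3H saline hyperoxia mice.

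**Figure D4:**
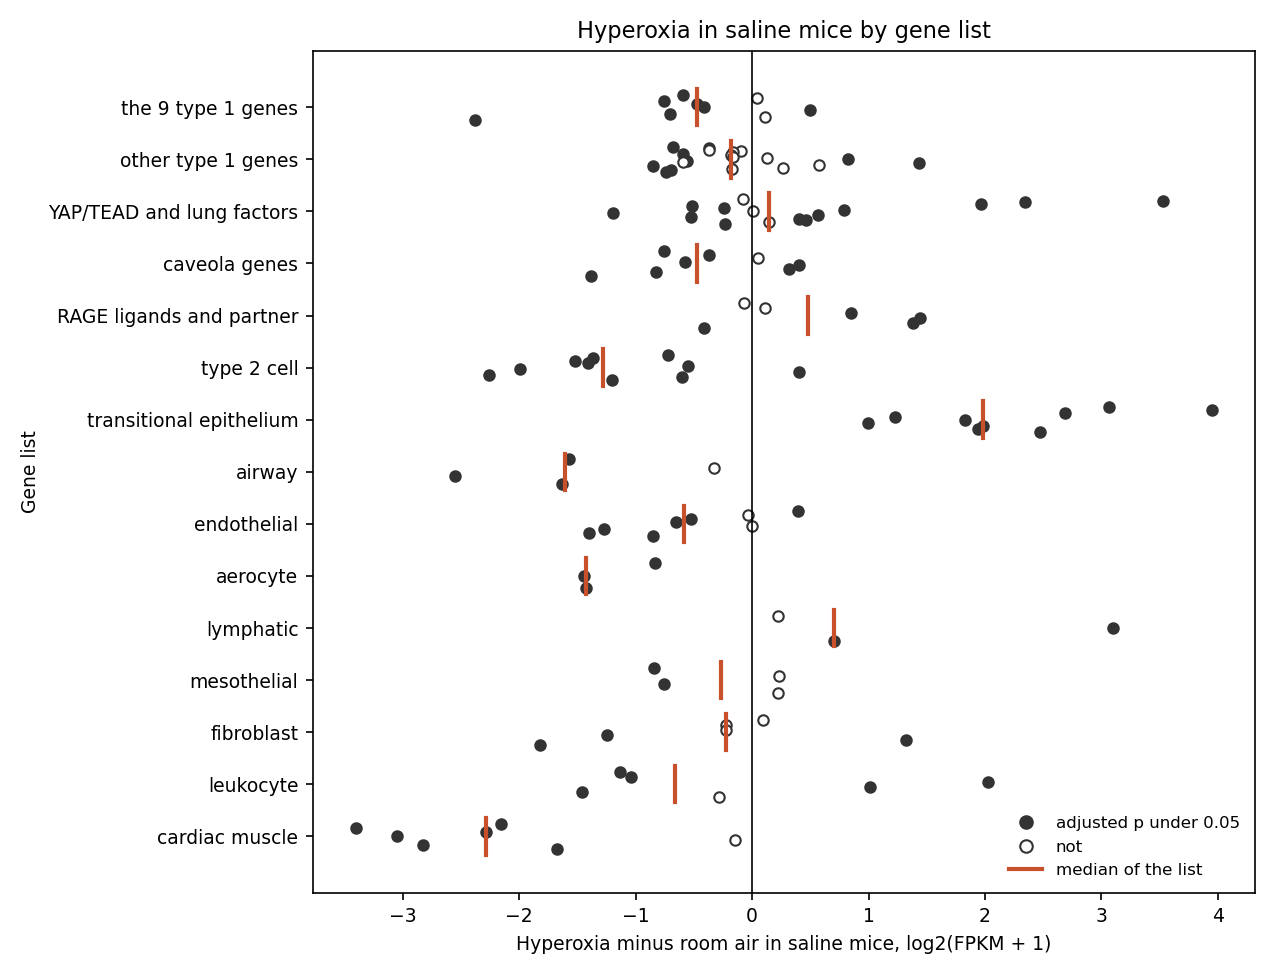
Difference between hyperoxia and room air in saline mice (log2 axis, 12 against 12 mice) for every tested gene of each list in rows, filled where adjusted p was under 0.05 and open otherwise, with a bar at the list's median. The 9 type 1 genes centre at -0.47, between the type 2 list at -1.28 and the transitional epithelium list at 1.98.

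Over all 48 mice, the genes whose levels were most like the mean standardised level of the 9 were Ehd2 (Pearson r = 0.928), a caveola ATPase, Fbln5 (0.912), an elastic fibre protein, Nipa1 (0.900), Agrn (0.899) and Sptan1 (0.898), an alpha spectrin. Ager alone was most like Tspan8 (0.923), Ehd2 (0.920) and Fbln5 (0.917). These are descriptions among 16985 genes, and the mice share oxygen, strain and library differences. Within the 24 room air mice the values for the mean of the 9 ran from 0.894 for Sptan1 to 0.975 for Fbln5, and within the 24 hyperoxia mice they ran from 0.817 for Agrn to 0.939 for Ehd2.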

How the data were processed

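Lung tissue from each mouse was snap-frozen and made into 1 mRNA library (the labels give a directional kit and HiSeq2000; the study's methods, which cover the 12 saline room air mice, give another kit and instrument). Reads were mapped by the authors with gSNAP to mm10 and expression was deposited as FPKM per gene from Cufflinks. SAMtools is also in the submitters' processing notes. The annotation release and the handling of reads with several matches are not given in the sources used here. The mm10 sequence is from C57BL/6J, so C3H reads can carry more mismatches. FPKM sums per mouse ran from 510933 to 748290. Read depth is unknown, since only 18.5% to 23.6% of low-value ratios lay on whole-read steps. Age comes from the study's methods and groups from the sample labels.

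Genes with FPKM of at least 1 in 3 or more of the mice fitted were kept, which included all 9 members. limma 3.58.1 (R 4.3.3) was fitted to log2(FPKM + 1) of all kept genes with a trended prior, on the groups each comparison used (24 mice for hyperoxia or ATG, 12 for strain and sex, 48 for hyperoxia by ATG), with group means weighted equally. Changes passed at a Benjamini-Hochberg adjusted p under 0.05 over all genes tested. The p-values set each difference against the spread between mice within groups, as moderated by that prior. The pseudocount of 1 understates changes of low genes. The fit was tested on simulated data. Exact permutation tests of 1 gene were two-sided, on mean FPKM of 6 against 6 mice. Confidence intervals are at 95% and unadjusted. Gene IDs were matched to GENCODE M21 (47145 of 47561 found). The genes named were all 9 members, at most 4 genes of each other list with the largest change past the threshold for hyperoxia in saline mice, markers needed beside a result, and the 5 and 3 genes most like the members and Ager by correlation. The members, the 14 other lists and the tests were chosen with earlier results of these data known. Alternatives changed the pseudocount, the filter, the scaling, the prior, the mice fitted and each mouse in turn.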

Additional observations from a re-analysis of the deposited data

Results flagged for a closer look

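Within the groups of 6 mice that share strain, injection and air, 12 of 72 sets of values had a mouse far from the other 5, with a gap over 0.625 of the range. Chance gives this in about 1 in 20 groups, and the 9 genes are not independent of each other. Mouse 33 (C3H female, saline, hyperoxia) accounted for 4 of them, with 612 FPKM of Ager, 56.6 of Clic5, 179 of Emp2 and 241 of Gprc5a, all below the others. Mouse 48 (C57B female, ATG, hyperoxia) was low in Ager at 648 FPKM (1057 to 1253 in the other 5), in Hopx at 361 FPKM (638 to 723) and in Emp2 at 218 FPKM (309.8 to 359). Mouse 11 (C3H male, ATG, hyperoxia) was high in Ager at 2595 FPKM (1118 to 1554) and in Cav1 at 515 FPKM (259 to 354). Ager was also high in mouse 3 (C3H male, saline, room air) at 3462 FPKM (1746 to 2354) and in mouse 4 (C3H male, ATG, room air) at 3472 FPKM (2188 to 2656). Rtkn2 was high in mouse 24 (C57B male, ATG, hyperoxia) at 22.9 FPKM (3.96 to 9.18).

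Strain differences past the limma test were found in 5 responses. The hyperoxia response of Gprc5a, C3H minus C57B, was -0.95 in saline mice and -0.99 in ATG mice. In ATG mice it was -0.65 for Aqp5 and 1.08 for Rtkn2. The ATG effect on Pdpn in hyperoxia differed by 0.90. No cause was tested for any of these values.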

How the results depend on the processing

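No paired analysis was possible because each mouse has its own number and the groups share none. Of 3285 values of the 9 genes under alternatives, 2 that had passed reversed: Gprc5a for hyperoxia with ATG in C3H mice alone (-0.24) and Pdpn for ATG in hyperoxia in C57B mice alone (-0.10). Another 101 changed sign where neither value passed. For hyperoxia in saline mice, 2 genes passed in C3H mice alone and 4 in males alone, fits with fewer mice. Over all genes, 5164 of 15293 passed in C3H mice alone and 6403 of 15406 in males alone. For ATG in hyperoxia, 0 passed in C57B mice, males or females alone, where 1 of 14814, 0 of 15121 and 9 of 15090 genes passed. The strain difference in the saline hyperoxia response gave 2 genes in the fit of all 48 mice (Rtkn2 added, adjusted p = 0.0116), and hyperoxia by ATG gave 1 (Cav1) after median ratio scaling. The cause was not tested. Leaving out each mouse in turn gave 7 to 8 genes for hyperoxia with saline and with ATG, 4 to 7 for strain, 0 to 1 for sex and 1 for ATG in hyperoxia. It gave 1 to 3 genes for the strain difference in response with saline (2 without mouse 2 or 21, 3 without mouse 33) and 2 to 5 with ATG (5 without mouse 48). For hyperoxia by ATG it gave 0 to 1 (1 without mouse 2, 11, 17, 33 or 46). With the fit of all 48 mice the Rtkn2 strain difference at baseline did not pass (adjusted p = 0.195), and Ager did not without the filter (adjusted p = 0.102). Over all genes, calls for sex at baseline were 104, against 40 without a filter and 1915 in the fit of all 48 mice, and calls for the hyperoxia response by sex were 6 and 306. Calls for the saline strain response were 1880 and 2994, and for strain 1832 and 2982. For hyperoxia by ATG they were 470, and 313 without a filter. Without a filter on low values more genes enter the adjustment. Depth could not be read from FPKM, so no limit of detection is given.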

Other observations

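Other epithelial and vascular lists were read for hyperoxia in saline mice, 12 against 12, by counts and medians (all-gene median 0.01, 60.1% of genes changed). All 9 transitional epithelium markers rose, with a median of 1.98. Among them were the cell cycle inhibitor Cdkn1a (3.95, adjusted p = 3.59e-17), the growth factor Areg (3.06, adjusted p = 1.67e-12), the tight junction gene Cldn4 (2.69, adjusted p = 1.38e-08) and Sfn (2.47, adjusted p = 9.27e-12). Of 10 type 2 markers, 9 fell and 1 rose (median -1.28). The surfactant protein gene that rose was Sftpb (0.40, adjusted p = 0.00579), named after its value was seen. Sftpc fell by 2.26 (adjusted p = 1.44e-10) and Sftpa1 by 1.99 (adjusted p = 7.37e-09), and Lamp3 and Lpcat1 fell by 1.52 and 1.41. Of 8 endothelial markers, 5 fell, 1 rose and 2 did not pass (median -0.59), with the angiopoietin receptor Tek at -1.40 (adjusted p = 2.27e-10).

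All 3 capillary aerocyte genes tested fell (median -1.43), led by the endothelin receptor Ednrb at -1.44 (adjusted p = 4.36e-08). Of 3 lymphatic genes tested, 2 rose, Lyve1 by 3.10 (adjusted p = 1.97e-13) and Mmrn1 by 0.70 (adjusted p = 7.24e-06). Airway markers fell in 3 of 4 cases (median -1.60), with the club cell gene Scgb1a1 at -2.55 (adjusted p = 5.18e-10). Of 6 leukocyte markers, 2 rose and 3 fell (median -0.66). Fibroblast genes gave 1 higher and 2 lower of 6 (median -0.23), and mesothelial genes 2 lower of 4 (median -0.26). Cardiac transcripts were lower in 6 of 7 cases (median -2.29), with Mb at -3.40 (adjusted p = 4.78e-04).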
